A study of Mus musculus with 12 samples.

Results

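Claudins are membrane proteins that cross the cell membrane 4 times and form the strands of tight junctions. The genes described here are CLDN1, CLDN2, CLDN3, CLDN4, CLDN6, CLDN7, CLDN9, CLDN12 and CLDN15, in CT26, a mouse colon carcinoma line from BALB/c mice. They are 9 of the 23636 gene symbols measured. The 9 were listed by name, and CLDN6 and CLDN9 were singled out because their mRNA was already known to be lower in these libraries (CLDN6 in 3 of the comparisons and CLDN9 with CX3CL1). The levels of CLDN6 and CLDN9 are therefore a description with no test, and nothing is drawn from their differences between treatments.

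CT26 cells were cultured for 8 hours with no treatment, with recombinant CX3CL1 (2 µg/ml), with IFN-γ (100 ng/ml), or with CX3CL1+IFN-γ at these doses, and mRNA libraries were sequenced in 3 biological replicates of each, 12 libraries in all. CX3CL1, or fractalkine, is a chemokine whose receptor CX3CR1 CT26 cells carry, and IFN-γ is the cytokine of activated T and NK cells. All 4 groups were the same unmodified cell line, so each group holds 1 cell line and no animal. Of the epithelial markers of a carcinoma, EPCAM and CDH1 (E-cadherin) were at 0 and at most 0.0430 TPM in these libraries, while the keratins KRT18 and KRT20 were expressed, at 18.4 to 53.6 and 6.44 to 16.8 TPM, and the mesenchymal marker VIM was at 1684 to 4831 TPM. The labels name IFN-γ alone for these groups, while a passage of the study's text also names TNF-α, and whether TNF-α was added to them is not settled by the sources used here. The comparisons asked how each agent changed the RNA of tumor cells and what CX3CL1 added to IFN-γ.

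Between neighboring epithelial cells, claudins meet across the gap and either seal it or open pores for selected ions. Inside the cell, the tails of most claudins bind scaffold proteins such as TJP1 (ZO-1), which tie the strands to actin. Normal colon epithelium carries sealing claudins such as CLDN3, CLDN4 and CLDN7, while CLDN6 belongs mainly to embryonic epithelia and is switched on again in some tumors. As background, IFN-γ is known to loosen tight junctions in cultured epithelial layers.

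Levels are in TPM, a gene's share of all transcripts after correction for transcript length, so levels of different genes can be compared within a library. Each library summed to 1000000 TPM, between 10613 and 10824 symbols reached 1 TPM, and TPM keeps no sequencing depth, so the depth behind a value is unknown. A listed 0 can be a failed estimate, since the ribosomal protein symbol RPL26 was also listed at 0 in every library. In all 3 of 81 such symbols were at 0, but for RPS4L and RPL10L a true 0 cannot be told from a failed one. These symbols give no rate of failure for the claudins. The RNA came from whole cultures, so fewer cells expressing a gene and less RNA per cell cannot be told apart.

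The table held 32 claudin symbols, and CT26 cells used very few of them. Only CLDN6 and CLDN12 had a mean over the 12 libraries of at least 1 TPM, and only 4 (CLDN6, CLDN9, CLDN12 and CLDN15) had a mean of at least 0.2 TPM, the level needed to enter the tests. The other 5 listed claudins did not pass that filter. CLDN3 and CLDN7, sealing claudins of colon, and CLDN2, which forms a pore for cations and water, were listed at 0 in all 12 libraries. CLDN4, another sealing claudin, was at 0 except for 0.0487 TPM in replicate 3 of CX3CL1+IFN-γ, and CLDN1, a barrier claudin of skin, was at 0 except for 0.0130 TPM in replicate 3 of no treatment. Of the 23 claudins outside the list, 16 were at 0 in all libraries and the highest value was 0.357 TPM, for CLDN18 of stomach and lung.

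CLDN6 and CLDN9 lie end to end on mouse chromosome 17 and are close in sequence, which bears on how their reads can be told apart. In GRCm38 with GENCODE vM21, CLDN6 (ENSMUSG00000023906.3) is on the plus strand at chr17:23679249-23682446, with 3 exons in its first transcript and its coding bases in the last exon. CLDN9 (ENSMUSG00000066720.7) is a single exon on the minus strand at chr17:23682584-23684026. The genes run towards each other and 137 bases separate their ends. Their coding sequences, of 660 and 654 bases with the stop codon, were identical at 73.2% of 654 aligned bases. The most similar stretch of 150 coding bases is shown to let the difference between them be seen, with Cldn6 at chr17:23681149-23681298 (+) and Cldn9 at chr17:23683415-23683564 (-), each 5′ to 3′, and capitals mark the 9 bases that differ.
Cldn6: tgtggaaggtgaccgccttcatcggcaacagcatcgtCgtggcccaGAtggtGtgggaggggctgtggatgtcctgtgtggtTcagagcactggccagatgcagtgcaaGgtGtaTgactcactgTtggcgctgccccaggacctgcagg
Cldn9: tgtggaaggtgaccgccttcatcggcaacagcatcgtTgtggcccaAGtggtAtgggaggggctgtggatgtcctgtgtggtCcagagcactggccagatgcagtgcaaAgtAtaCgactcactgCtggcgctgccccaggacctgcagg
In this stretch 141 of 150 bases (94%) were the same, and the longest run shared by both whole transcripts in the sense direction was 37 bases. The longest run shared between opposite strands was 10 bases. The reads were 150 bases long, so a full-length read of either coding sequence carries mismatches to the other.

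CLDN6 was the most expressed claudin of untreated CT26 cells and fell in steps across the groups. Its level with no treatment was 230.3, 245 and 275 TPM in replicates 1, 2 and 3. CX3CL1 libraries held 147, 141 and 145 TPM. IFN-γ libraries held 65.8, 71.6 and 67.3 TPM, and those with CX3CL1+IFN-γ held 26.5, 36.1 and 29.8 TPM. No group overlapped another: the lowest untreated library lay above the highest CX3CL1 library, that group lay above IFN-γ, and IFN-γ lay above the combination. The means were 250.3 ± 23.0, 144 ± 2.81, 68.2 ± 3.03 and 30.8 ± 4.86 TPM (SD, n = 3), so that CX3CL1 left 57.6% of the untreated mean, IFN-γ 27.3% and the combination 12.3%. Of all 11878 genes tested, 4 (0.0337%) had this order of groups with no overlap, and nothing is read from this share, since CLDN6 was chosen on its falls across these groups. The other 3 were LTBP3, 2610318N02RIK and ARMC9.

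**Figure D1:**
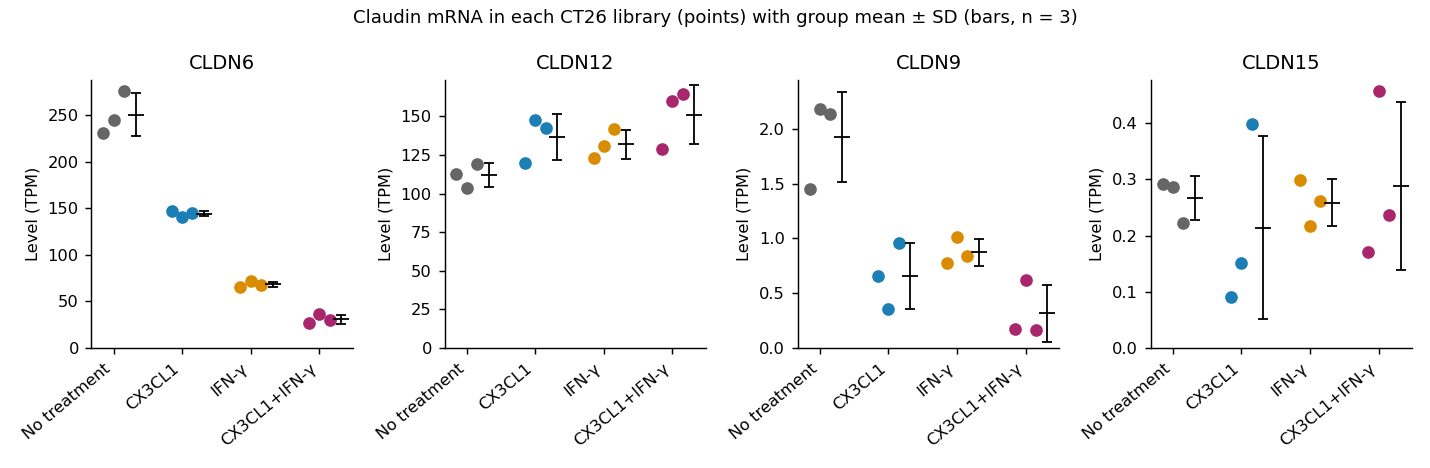
Level in TPM (vertical axes, from 0, a separate scale for each gene) of CLDN6, CLDN12, CLDN9 and CLDN15 in the 4 groups. Points are libraries, and the bar beside them is the group mean ± SD of 3 libraries. CLDN6 stepped down from 230.3 to 275 TPM in untreated cells to 26.5 to 36.1 TPM with CX3CL1+IFN-γ, CLDN12 stayed between 104 and 164 TPM, CLDN9 stayed under 2.2 TPM, and the groups overlapped for CLDN15.

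CLDN9, which is known for its part in the ion barrier of the inner ear, was low in all groups. Untreated cells had 1.45, 2.18 and 2.14 TPM, and cells with CX3CL1 had 0.660, 0.359 and 0.960 TPM. With IFN-γ it was at 0.775, 1.01 and 0.836 TPM, and with CX3CL1+IFN-γ at 0.173, 0.619 and 0.161 TPM. Each untreated library was above all 9 treated ones, the CX3CL1 and IFN-γ groups overlapped, and the combination was below IFN-γ without overlap but overlapped CX3CL1. The means were 1.92 ± 0.410, 0.659 ± 0.300, 0.873 ± 0.121 and 0.317 ± 0.261 TPM (SD, n = 3), or 34.3%, 45.4% and 16.5% of the untreated mean for CX3CL1, IFN-γ and the combination.

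CLDN9 amounted to a very small share of CLDN6, and this share was not constant. It was 0.630 to 0.890% of the CLDN6 level with no treatment, 0.254 to 0.662% with CX3CL1, 1.18 to 1.41% with IFN-γ and 0.540 to 1.72% with the combination. The untreated and IFN-γ ranges did not overlap. The part of CLDN6 reads that run past its end in the CLDN9 values was not tested. The library kit was strand-specific, but whether strand was used in the counting is not given in the sources used here.

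CLDN12, which unlike most claudins lacks the tail that binds scaffold proteins, was the second most expressed claudin of untreated cells and did not fall. It lay above CLDN6 in every library with IFN-γ and with the combination. Its level was 113, 104 and 119 TPM with no treatment, 119.9, 148 and 142 TPM with CX3CL1, 123, 131 and 142 TPM with IFN-γ, and 129, 159.9 and 164 TPM with CX3CL1+IFN-γ. All 3 treated groups lay above all untreated libraries (by less than 1 TPM for CX3CL1), and they overlapped one another. How many of all genes are set apart in this way was not counted, so nothing is read from it. On the scale of log2(TPM + 1), CLDN12 was 0.42 higher with the combination than with no treatment (SE 0.12, 95% interval 0.17 to 0.68, adjusted p = 0.0305 by limma over all genes tested). That call was lost when no-treatment replicate 1, 2 or 3 or CX3CL1+IFN-γ replicate 2 or 3 was left out in turn (differences of 0.36 to 0.47, adjusted p 0.0542 to 0.141) and with median-ratio scaling. With CX3CL1 alone the difference was 0.28 (interval 0.03 to 0.53, adjusted p = 0.492) and with IFN-γ alone 0.23 (interval -0.02 to 0.49, adjusted p = 0.260), neither of which passed the test. The combination against IFN-γ gave 0.19 (-0.06 to 0.44) and against CX3CL1 0.14 (-0.11 to 0.39), also without passing.

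CLDN15, which forms a cation pore in the small intestine, was close to the lower limit of what was tested. It ranged from 0.222 to 0.292 TPM with no treatment, 0.0913 to 0.398 TPM with CX3CL1, 0.216 to 0.299 TPM with IFN-γ and 0.170 to 0.457 TPM with the combination, so all groups overlapped. Its differences in log2(TPM + 1) lay between -0.07 and 0.09, with intervals of about 0.25 on either side, and none passed the test. At this level the pseudocount of 1 hides most of any fold change.

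The make-up of claudin mRNA is given as a description, since its shares and sums contain CLDN6, which was chosen on its falls. CLDN6 gave 66.7 to 69.8% of the summed claudin level with no treatment, 48.7 to 54.8% with CX3CL1, 32.0 to 35.1% with IFN-γ and 15.3 to 18.3% with CX3CL1+IFN-γ. CLDN12 gave the rest but for a trace, from 29.5 to 32.7% in untreated cells to 81.1 to 84.4% with the combination. The summed level went from 365 ± 28.4 TPM with no treatment to 282 ± 12.6, 201 ± 10.5 and 183 ± 23.1 TPM (SD, n = 3) with CX3CL1, IFN-γ and the combination. The IFN-γ and combination sums overlapped, while their CLDN6 shares did not, and nothing is read from this.

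**Figure D2:**
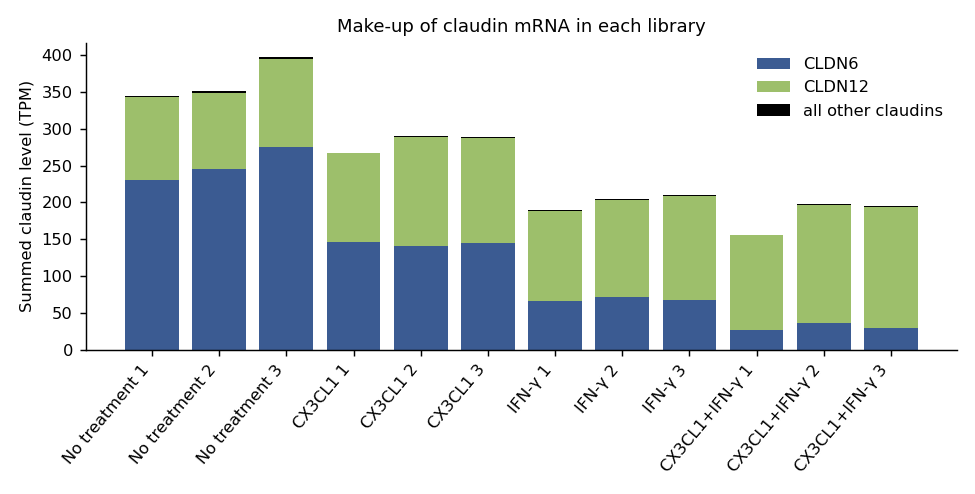
Summed TPM of all 32 claudin symbols (vertical axis, from 0) in each of the 12 libraries, stacked by CLDN6, CLDN12 and the rest. CLDN6 made up 66.7 to 69.8% of the bar in untreated libraries and 15.3 to 18.3% with CX3CL1+IFN-γ, and the rest was too small to be seen well.

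Differences were fitted with limma across all 11878 genes and called at an adjusted p (Benjamini-Hochberg) under 0.05. The 3 comparisons with no treatment share the untreated libraries, and the comparisons of the combination with each agent share the combination, so they are not separate evidence. For CX3CL1 against no treatment, 1.95% of all genes were called and 0.168% were lower, and of the 4 claudins tested CLDN6 and CLDN9 were among the lower ones, as the choice of these genes fixed. Their differences were -0.79 (SE 0.11) and -0.82 (SE 0.17) in log2(TPM + 1), and CLDN9 left the called genes without no-treatment replicate 2 or 3 or CX3CL1 replicate 1 or 2 (-0.83 to -0.69). For IFN-γ against no treatment, 7.85% of all genes were called and 1.94% were lower, and the values were -1.86 for CLDN6 and -0.63 for CLDN9, which left the called genes without no-treatment replicate 2 or 3 or any 1 IFN-γ library (-0.69 to -0.57). For the combination against no treatment, 11.9% were called and 3.72% were lower, with CLDN6 at -2.99, CLDN9 at -1.16 and CLDN12 among the higher genes. At the low level of CLDN9 the pseudocount of 1 makes its differences smaller, so they cannot be set against those of CLDN6. With the combination the means of CLDN6 and CLDN9 were 12.3% and 16.5% of the untreated means.

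When CX3CL1 was added to IFN-γ, few genes moved, and 0.362% of all 11878 genes were called and 0.0168% of all genes were lower. CLDN6, chosen for its falls, was among the lower ones at -1.13, and CLDN9 was at -0.52. When IFN-γ was added to CX3CL1, 4.7% of all genes were called and 0.935% were lower, CLDN6 was at -2.20, and CLDN9 was at -0.33. Same-numbered libraries deviated together for IFN-γ against no treatment and for both comparisons of the combination with 1 agent. With a block on the replicate number, the number of all genes called in these went from 932 to 1929, from 43 to 95 and from 558 to 1369. CLDN12 and CLDN15 stayed uncalled there, and CLDN6 and CLDN9 are a description.

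**Figure D3:**
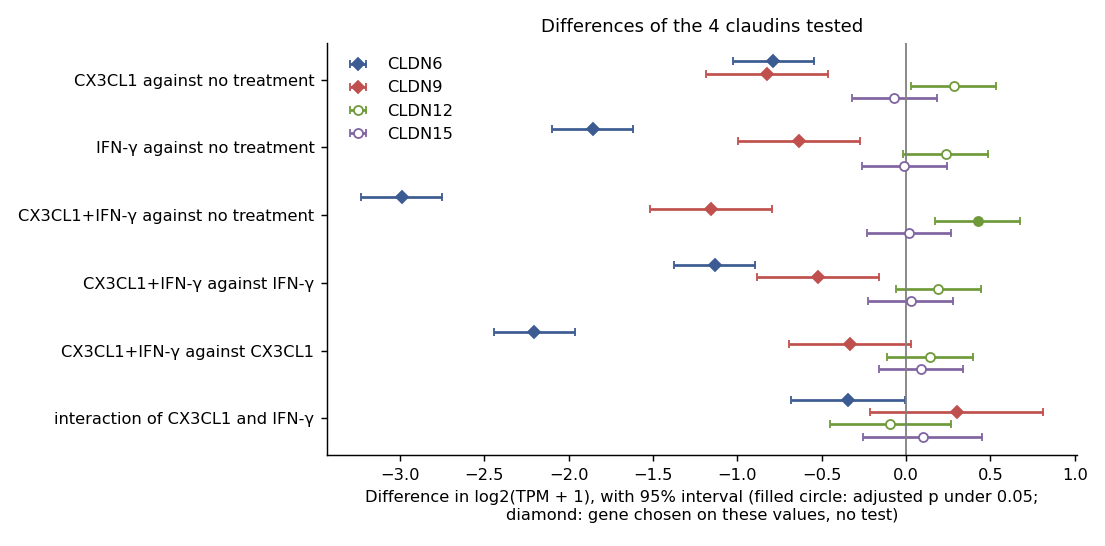
Difference in log2(TPM + 1) (horizontal axis) with its 95% interval for CLDN6, CLDN9, CLDN12 and CLDN15 in 5 comparisons and in the interaction of CX3CL1 and IFN-γ. Diamonds are CLDN6 and CLDN9, chosen on these values and shown with no test in all rows, and filled circles passed an adjusted p under 0.05. CLDN6 reached -2.99 with the combination, and CLDN12 passed only there, at 0.42. At the low levels of CLDN9 and CLDN15 the pseudocount of 1 shrinks the differences.

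The interaction is the CX3CL1 difference with IFN-γ present minus the CX3CL1 difference without it. It is 0 where the agents act independently on the scale of log2(TPM + 1). It is made from the values on which CLDN6 and CLDN9 were chosen, so theirs are given with no test, at -0.35 (SE 0.16) for CLDN6 and 0.30 (SE 0.24) for CLDN9. At the low level of CLDN9 this scale is far from a log scale, and its interaction ranged from 0.09 to 0.43 under other settings. For CLDN12 the interaction was -0.09 (95% interval -0.45 to 0.26) and for CLDN15 0.10 (-0.26 to 0.45), and neither passed. Over all 11878 genes limma called 0% (0 genes, with 273 at an unadjusted p under 0.05), while 52 genes were called with the replicate block, 11 without no-treatment replicate 1, and 1 with quantile normalization or without CX3CL1+IFN-γ replicate 2. Neither CLDN12 nor CLDN15 was among the genes called in any of these fits.

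The other parts of the tight junction were read from a list of 40 genes. Its 12 other transmembrane members were near absent in CT26 cells and none reached the level for testing. OCLN (occludin) was at most 0.135 TPM, F11R (JAM-A) at most 0.244 TPM, and JAM3, CXADR and BVES were at 0 in all libraries. Of 15 scaffold and adaptor genes 13 were tested, and none was called in any comparison. YBX3, a Y-box factor that binds TJP1, was the highest of them at 646 to 837 TPM, and TJP1 itself was at 68.3 to 92.8 TPM. The median differences of the scaffold genes were -0.10, -0.05 and -0.02 for CX3CL1, IFN-γ and the combination against no treatment, beside -0.02, 0.03 and 0.02 over all genes tested.

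Of 13 polarity and signaling genes 7 were tested and 1 was called, with IFN-γ and with the combination, beside the 7.85% and 11.9% of all genes given above, so a count of 1 in 7 does not stand out. ARHGEF2, an exchange factor that is held at tight junctions and microtubules, was at 85.4, 98.1 and 85.6 TPM with no treatment and reached 93.4, 104 and 102 TPM in the CX3CL1 libraries. IFN-γ libraries held 137, 132 and 139 TPM and the combination 145, 132 and 140.0 TPM. Both groups with IFN-γ lay above both without it, and the share of all genes that did so was not counted. The differences were 0.60 with IFN-γ (SE 0.09, adjusted p = 0.000649 by limma), 0.63 with the combination (SE 0.09, adjusted p = 0.000304) and 0.47 for the combination against CX3CL1 (SE 0.09, adjusted p = 0.00698), and with CX3CL1 alone it was 0.15 (interval -0.04 to 0.34, adjusted p = 0.839). The call against CX3CL1 was lost when only the 6 libraries compared entered the fit. PRKCI, an atypical protein kinase C of the polarity complex, was at -0.57 with IFN-γ (adjusted p = 0.0614), and with the replicate block it and AMOT, an adaptor of the angiomotin family at -0.34, were called lower as well, 3 genes in place of 1. In the combination against CX3CL1 the block added PARD3, a polarity scaffold, as higher (0.33), for 2 genes in place of 1.

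**Figure D4:**
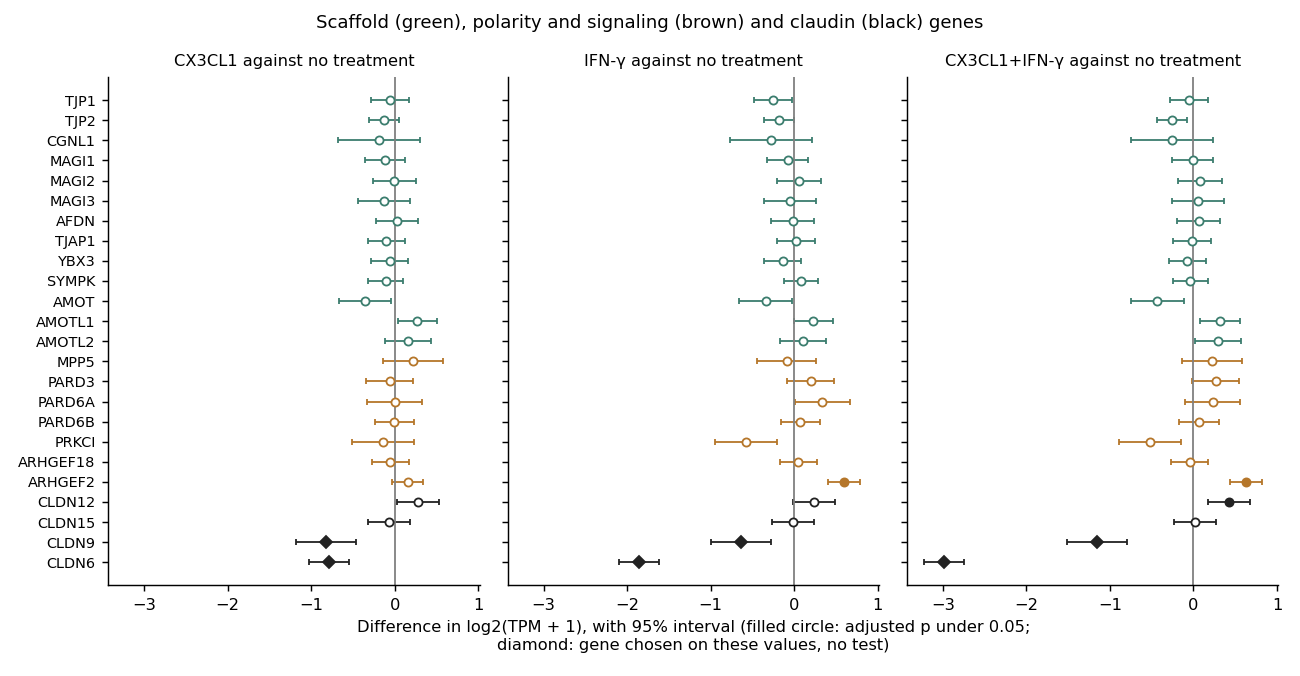
Difference in log2(TPM + 1) (horizontal axis) with its 95% interval for the tested scaffold and adaptor genes (green), polarity and signaling genes (brown) and claudins (black), for each agent and the combination against no treatment. Filled circles passed an adjusted p under 0.05, and diamonds are CLDN6 and CLDN9, chosen on these values and shown with no test. ARHGEF2 passed at 0.60 and 0.63 with IFN-γ and with the combination, while CLDN6 lay at -0.79, -1.86 and -2.99. At the low levels of CLDN9 and CLDN15 the pseudocount of 1 shrinks the differences.

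Of the tested genes beside CLDN6 and CLDN9 on chromosome 17, 1 was called lower with the combination. Another 1 was called higher with IFN-γ and with the combination, and the others were not called against no treatment. Over all genes tested, 7.85% were called with IFN-γ and 11.9% with the combination, and nothing is read from counts among so few genes. The 5 genes on each side of the pair were taken from GENCODE vM21. HCFC1R1, at -5653 bases from the start of CLDN6, was at 89.7, 109 and 112 TPM with no treatment and 69.9, 67.6 and 55.5 TPM with the combination, a difference of -0.68 (SE 0.14, adjusted p = 0.00588 by limma). Its other values, -0.39 with CX3CL1 and -0.47 with IFN-γ, did not pass. Its group means stood in the same order as those of CLDN6, but how many genes share this order of means was not counted. HCFC1R1 libraries with IFN-γ (66.8 to 91.3 TPM) overlapped those with CX3CL1 (72.9 to 84.2 TPM). TNFRSF12A, the TWEAK receptor and the nearest gene, was at 571 to 582 TPM with no treatment and 399 to 672 TPM with CX3CL1. It was at 584 to 639 TPM with IFN-γ and 443 to 503 TPM with the combination. The combination libraries lay below the untreated ones, and how many of all genes do so was not counted. TNFRSF12A was not called against no treatment (0.06 with IFN-γ and -0.30 with the combination). On the far side, 9530082P21RIK rose from 3.95 to 4.36 TPM in untreated libraries to 10.6, 12.3 and 23.5 TPM with IFN-γ (1.58, adjusted p = 0.00295) and to 12.5, 13.1 and 23.9 TPM with the combination (1.69, adjusted p = 0.00112). HCFC1R1 overlaps THOC6, and 9530082P21RIK overlaps KREMEN2 and FLYWCH1, on opposite strands, so their values are uncertain if strand was not used in the counting. THOC6, PKMYT1, PAQR4 and FLYWCH1 were not called against no treatment, and MMP25, BICDL2 and KREMEN2 were under 0.13 TPM. The other claudin pair, CLDN3 and CLDN4 on chromosome 5, was at or near 0. Of its 10 neighbors, LIMK1, METTL27, ABHD11, STX1A and BUD23 were expressed, and ELN, TMEM270, CLDN13, WBSCR25 and ABHD11OS were at most 0.572 TPM.

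**Figure D5:**
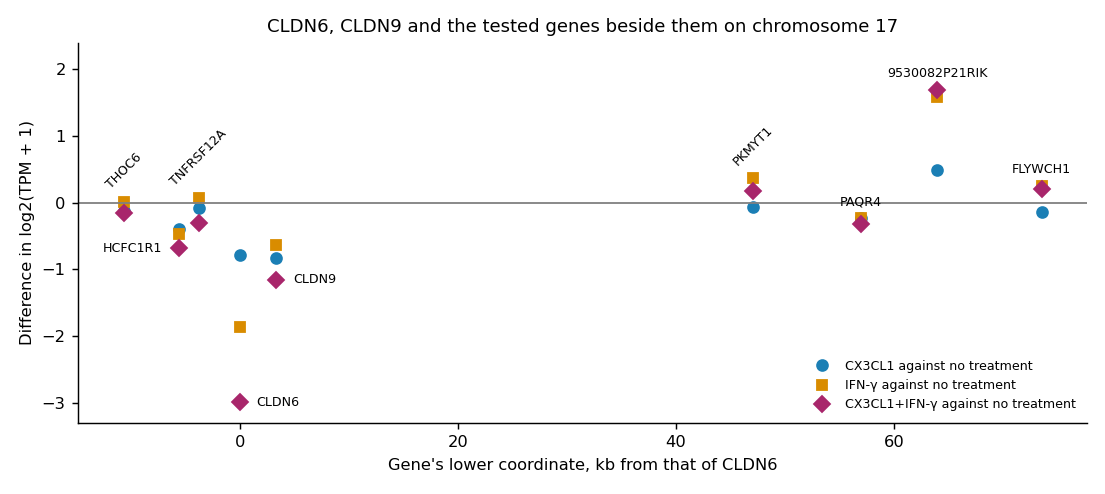
Difference in log2(TPM + 1) against no treatment (vertical axis) by distance of each gene's lower coordinate from that of CLDN6 (horizontal axis, kb), for CLDN6, CLDN9 and the 7 tested genes beside them. CLDN6 reached -2.99 and CLDN9 -1.16 with the combination, HCFC1R1 -0.68, and 9530082P21RIK 1.69, with CLDN6 and CLDN9 shown as a description. At the low level of CLDN9 the pseudocount of 1 shrinks its difference, and its combination mean was 16.5% of the untreated mean, beside 12.3% for CLDN6.

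The promoter of CLDN6 was searched for motifs of factors tied to IFN-γ, NF-kB and epithelial control. RefSeq windows of 300 bases (250 before and 50 after a gene's start, GRCm38.p6) were found for 8 of the 9 claudins, CLDN9 being the exception. The motifs, on both strands, were GAS (TTCNNNGAA), ISRE (GAAA, any 2 bases, GAAA), NF-kB (GGGA, any base, TTTCC), grainyhead (AACCNGTT), the SNAIL E-box (CAGGTG) and the GC box (GGGCGG). They occurred in 8.30%, 3.44%, 0.411%, 2.09%, 20.2% and 35.7% of 32851 promoter windows. The CLDN6 window held the E-box at -93 and 40 and the GC box at -140 and -8 from the RefSeq start, and no match to the other 4. Of the 8 claudins with a window, CLDN7 and CLDN12 held a GAS match, CLDN7 an ISRE match, 4 (CLDN3, CLDN4, CLDN6 and CLDN7) the E-box and 7 (all but CLDN2) the GC box. These 8 had 11 windows in all, and a claudin counted if any of its windows matched. Such counts per gene cannot be set against the shares per window. The stretch of CLDN6 before the first GENCODE exon (chr17:23679115-23679248, +) and 24 bases around each further match (chr17:23679263-23679286, chr17:23679348-23679371 and chr17:23679391-23679414, +) are given 5′ to 3′ to show the sites, with the motif in capitals.
Cldn6 upstream, GC box at -140: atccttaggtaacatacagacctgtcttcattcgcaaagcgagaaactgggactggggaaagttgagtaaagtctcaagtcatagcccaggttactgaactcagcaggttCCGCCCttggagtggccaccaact
Cldn6 E-box at -93: aaacgcacgCAGGTGgctatcgcc
Cldn6 GC box at -8: cccttgcctCCGCCCtcattccta
Cldn6 E-box at 40: agcagtctcttttgCAGGTGagcc
A match is a description of letters and shows neither binding nor a cause, and the absence of a match says only that these letters are not in this window.

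The genes whose levels ran most like CLDN6 over the 12 libraries were MGST3, a glutathione transferase of membranes (Pearson r of log2(TPM + 1) 0.967), LTBP3, which binds latent TGF-β (0.959), 2610318N02RIK (0.956), KLHDC8A (0.954) and CDH26, a cadherin (0.953). Group means of MGST3 were 105, 71.9, 47.3 and 31.2 TPM for no treatment, CX3CL1, IFN-γ and the combination, and those of CDH26 were 36.2, 24.5, 16.7 and 12.1 TPM. Both fell in the order of CLDN6 but by a smaller factor. Most like CLDN9 were ITGA3, an integrin chain that binds laminin (0.971), PCOLCE (0.941), PDLIM2 (0.936), LASP1 (0.930) and CAVIN3 (0.927). Group means of ITGA3 were 48.7, 37.1, 38.5 and 31.6 TPM. CLDN6 and CLDN9 had an r of 0.800 with each other, which placed CLDN9 at rank 301 among the genes most like CLDN6. These values are across libraries of 4 treatment groups, so they mainly reflect the group means, and they carry no test.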

How the data were processed

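The authors deposited 1 gene table of TPM for the 12 libraries. Per the labels, RNA was made into libraries with a strand-specific mRNA kit (Roche Kapa mRNA HyperPrep), and the submitters' processing notes name STAR 2.7.3a, the mm10 genome and DESeq2 1.22.1. The gene annotation, the strand setting and how counts became TPM are not given in the sources used here. TPM keeps no depth, so no interval from counts was possible and the count test of the study could not be repeated. Treatments and replicate numbers were taken from the labels, doses and time from the study.

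The 11878 genes whose mean reached 0.2 TPM were tested on log2(TPM + 1) with limma 3.58.1 (R 4.3.3, lmFit and eBayes with an intensity trend, all 12 libraries, group as the only term, two-sided, Benjamini-Hochberg over all genes, threshold 0.05). The fit was checked on simulated data. A fold change on this scale understates the change of low genes. An exact permutation test of 3 against 3 libraries cannot go below p = 0.1 and was not used. p-values measure the spread between biological replicates of 1 cell line.

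The claudins, the gene lists and the tests were chosen with earlier results of these data known. Named genes were the 9 claudins, called genes of the lists (up to 6) and the highest gene of each role, 5 annotated neighbors on each side of the CLDN6 and CLDN9 pair and of the CLDN3 and CLDN4 pair, and the 5 genes most correlated with CLDN6 and with CLDN9. Other genes named, such as absent junction genes, were picked after their values were seen.

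Same-numbered libraries deviated together, with every correlation over 0.1, for IFN-γ against no treatment (0.429, 0.460, 0.220), CX3CL1+IFN-γ against IFN-γ (0.630, 0.635, 0.649) and CX3CL1+IFN-γ against CX3CL1 (0.351, 0.353, 0.428), a pairing seen in the data and not stated in the labels. Main fits and their p-values left this pairing out. In the fits with the replicate block, the block covered all 12 libraries and so every comparison. Alternatives covered the pseudocount, the filter, the scaling, the libraries in the fit, the trend, the replicate block, a fold threshold and each library left out. Positions are from GENCODE vM21 on GRCm38, promoters from RefSeq (GRCm38.p6), and sequences were aligned with Biopython 1.88.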

Additional observations from a re-analysis of the deposited data

How the results depend on the processing

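CLDN6 and CLDN9 were chosen on their differences, so their values under other settings are a description. CLDN6 ranged from -0.85 to -0.72 in log2(TPM + 1) for CX3CL1, -1.91 to -1.79 for IFN-γ and -3.11 to -2.89 for the combination against no treatment, from -1.25 to -1.03 for the combination against IFN-γ, from -2.32 to -2.10 against CX3CL1, and from -0.46 to -0.25 for the interaction. For CX3CL1 against no treatment the count of claudins called went from 2 to 1 with a pseudocount of 0.1 (CLDN9 at -1.47), with no filter and with a mean of at least 1 TPM (where CLDN9 and CLDN15 were not tested), to 0 with a minimum log2 fold change of 1 (the fold threshold), and to between 1 and 2 with 1 library left out. For IFN-γ against no treatment it went from 2 to 1 with the same settings, the fold threshold included, and to between 1 and 2 with 1 library left out. CLDN9 lost these calls without no-treatment replicate 2 or 3 or CX3CL1 replicate 1 or 2 (-0.83 to -0.69) and without no-treatment replicate 2 or 3 or any IFN-γ library (-0.69 to -0.57). CLDN12 with the combination lost its call with median-ratio scaling (0.39, adjusted p = 0.0788).

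Tight junction genes called for IFN-γ against no treatment numbered 1 in the report, 2 with median-ratio scaling, 3 with quantile normalization, 2 with only the libraries compared, 3 with the replicate block and 0 with the fold threshold, and 1 in all fits with 1 library left out. For the combination against no treatment they were 1, then 3 with no filter, 3 with median-ratio scaling, 4 with quantile normalization, 2 with only the libraries compared, 6 with the replicate block, 0 with the fold threshold, and 1 to 2 with 1 library left out. For the combination against CX3CL1 they were 1, then 0 with only the libraries compared, 2 with the replicate block and 0 with the fold threshold. The cause was not tested.

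The replicate block changed no call of CLDN12 or CLDN15, and the calls of CLDN6 and CLDN9 under it are a description. For CX3CL1 and for the combination against no treatment, where same-numbered libraries did not all deviate together (lowest correlations 0.00472 and 0.0324), it took the number of all genes called from 232 to 455 and from 1417 to 2464, and for the interaction from 0 to 52.

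Sign changes were limited to values near 0. With 1 library left out, CLDN15 lay between -0.18 and 0.0025 for CX3CL1 against no treatment (above 0 without CX3CL1 replicate 1), between -0.036 and 0.015 for IFN-γ (above 0 without no-treatment replicate 1 or 2 or IFN-γ replicate 2, at 0.0048, 0.0018 and 0.015) and between -0.074 and 0.084 for the combination (below 0 without no-treatment replicate 3, at -0.0080, or CX3CL1+IFN-γ replicate 2), where it was -0.049 with quantile normalization. It lay between -0.064 and 0.094 for the combination against IFN-γ and between -0.0039 and 0.19 against CX3CL1, below 0 without CX3CL1+IFN-γ replicate 2. The interaction of CLDN12 lay between -0.18 and 0.017, above 0 without CX3CL1+IFN-γ replicate 1. A low TPM rests on few reads, whose number is unknown here, which limits CLDN9 and CLDN15 most.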

Other observations

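Transcription factors and repressors of the epithelial program were expressed unevenly in CT26 cells. Of 18 listed genes 9 were tested. GRHL2, GRHL3, OVOL1, OVOL2, ELF3, EHF, HNF4A, CDX1 and CDX2, factors of the epithelial program, stayed at or under 0.238 TPM in every library. KLF5 (58.3 to 108 TPM) and GRHL1 (0.959 to 2.13 TPM) were expressed. So were SNAI1, SNAI2, ZEB1, ZEB2, TWIST1 and TWIST2, repressors of epithelial genes. TWIST2 was at 70.9, 86.3 and 64.6 TPM with no treatment and at 111, 126 and 129 TPM with CX3CL1+IFN-γ, with differences in log2(TPM + 1) of 0.59 with IFN-γ (adjusted p = 0.0120 by limma) and 0.72 with the combination (adjusted p = 0.00188). KLF4, a factor of differentiated colon epithelium, rose from 80.6, 82.3 and 67.0 TPM to 118, 125 and 128 TPM with the combination, at 0.52 with IFN-γ (adjusted p = 0.0291) and 0.69 with the combination (adjusted p = 0.00327). With CX3CL1 alone neither passed (0.25 and 0.28). None of the 9 tested genes was called lower in any comparison, beside 1.94% of all genes lower with IFN-γ and 3.72% with the combination. TWIST2 and KLF4 were the only ones called higher. Of all genes, 7.85% were called with IFN-γ and 11.9% with the combination, and nothing is read from counts in so short a list.

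Markers of the cell type were set beside these levels. Of 11 epithelial markers EPCAM was at 0 in every library, CDH1 (E-cadherin) was at most 0.0430 TPM, and only KRT18 and KRT20 were tested. KRT18, a keratin, fell from 34.1, 48.3 and 53.6 TPM with no treatment to 24.3, 21.9 and 18.4 TPM with the combination (-1.02, adjusted p = 0.00171 by limma) and was at -0.68 with IFN-γ (adjusted p = 0.0346). All 6 mesenchymal markers were expressed, with VIM (vimentin) at 1684 to 4831 TPM, and 4 of them were lower with the combination, beside 3.72% of all genes, among them COL1A1 at -1.24 (adjusted p = 0.00139) and VIM at -0.86 (adjusted p = 0.0186 by limma). COL1A2 was lower with CX3CL1 alone (-0.50, adjusted p = 0.0408 by limma) and SPARC with IFN-γ alone (-0.54, adjusted p = 0.0135 by limma). None of the 9 leukocyte markers exceeded 1.86 TPM, with CD3E at 0 throughout and PTPRC at most 0.0441 TPM, none was called, and the endothelial markers, CLDN5 at 0 among them, were not tested. Their part in the course of CLDN6 was not tested.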
